A study of Homo sapiens with 4 samples.

Results

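MARF1 is the gene whose own product was tagged and immunoprecipitated in these libraries, and the regions described here are the called peaks on its transcript. The peaks were selected on measured values, since the authors had called each of them as enriched over control, and then by position, as those that overlapped the MARF1 gene body on the minus strand of chr16:15688244-15737011 in hg19 (GRCh37). Of 282 intervals covered by a peak in both replicates, 18 lay in MARF1, which the deposited list names KIAA0430. Among the peaks of each replicate, MARF1 held 21 of 719 in replicate 1 and 20 of 534 in replicate 2. Because calling chose them, their number and their enrichment are given as a description, with no test.

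The libraries came from iCLIP, in which RNA crosslinked to a protein by UV light is recovered with an antibody and sequenced. There were 2 biological replicates of HEK293 cells, a human embryonic kidney line, expressing FLAG-tagged MARF1 without its NYN domain (F-MARF1ΔNYN), and 2 of control HEK293 cells with no FLAG-tagged protein, which makes 4 libraries. F-MARF1ΔNYN was switched on with doxycycline at 100 ng/mL for 12 hr, and the treatment given for all libraries was UV light of 254 nm at 400 mJ per square centimetre. Each F-MARF1ΔNYN library was set against the control library of its number, and the replicates were not pooled. Neither the labels nor the methods state whether control cells received doxycycline. The labels name the inducible cells as HEK293-Trex, so the protein came from an added, inducible copy of MARF1 beside the cells' own gene. Control cells had no such copy, and an added MARF1 RNA and binding to MARF1 RNA cannot be told apart in a comparison with them.

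MARF1 is an endoribonuclease known for its part in oocyte meiosis, where it holds down selected RNAs. Its NYN domain cuts RNA, while its RNA recognition motifs (RRMs) and its array of LOTUS domains are RNA-binding modules, and its carboxy-terminal part recruits the decapping scaffold EDC4. Removing the NYN domain takes away the catalytic part and leaves the binding modules in place.

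The coding sequence that the F-MARF1ΔNYN deletion removes lies in exons 5 to 7 of the main MARF1 transcript, and is shown because no peak of either replicate fell in it. The exons are given on the minus strand of hg19, at chr16:15727474-15727700, chr16:15725238-15725355 and chr16:15724189-15724361, with the deleted bases in capitals.
exon 5: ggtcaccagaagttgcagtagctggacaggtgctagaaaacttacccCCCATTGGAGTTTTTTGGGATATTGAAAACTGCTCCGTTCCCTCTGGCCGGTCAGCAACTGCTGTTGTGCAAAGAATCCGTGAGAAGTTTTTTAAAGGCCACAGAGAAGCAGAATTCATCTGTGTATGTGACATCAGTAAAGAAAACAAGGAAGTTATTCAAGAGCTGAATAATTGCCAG
exon 6: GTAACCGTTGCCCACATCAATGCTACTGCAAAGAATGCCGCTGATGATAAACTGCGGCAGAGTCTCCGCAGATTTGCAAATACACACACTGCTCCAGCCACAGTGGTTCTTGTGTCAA
exon 7: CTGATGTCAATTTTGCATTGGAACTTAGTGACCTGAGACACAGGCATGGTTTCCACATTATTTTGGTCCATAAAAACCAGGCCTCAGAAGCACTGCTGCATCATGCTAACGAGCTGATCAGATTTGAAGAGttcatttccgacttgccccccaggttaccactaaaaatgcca

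Exon 3 carried the interval with the highest mean enrichment of both replicates in MARF1. The interval, chr16:15729568-15729709 on the minus strand of hg19, has in capitals the 21 bases around the replicate 1 summit.
exon 3 interval: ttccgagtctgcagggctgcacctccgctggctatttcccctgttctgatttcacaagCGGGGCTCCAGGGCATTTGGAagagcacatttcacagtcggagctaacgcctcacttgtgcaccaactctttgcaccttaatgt

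Next in the order came exons 26, 21 and 25, which are shown whole, with capitals for the bases of the exon inside the shared interval. Each interval runs on past the downstream exon end, and those bases are not shown. On the minus strand of hg19, exon 21 lies at chr16:15702148-15702375, exon 25 at chr16:15694285-15694410 and exon 26 at chr16:15692711-15692881.
exon 21: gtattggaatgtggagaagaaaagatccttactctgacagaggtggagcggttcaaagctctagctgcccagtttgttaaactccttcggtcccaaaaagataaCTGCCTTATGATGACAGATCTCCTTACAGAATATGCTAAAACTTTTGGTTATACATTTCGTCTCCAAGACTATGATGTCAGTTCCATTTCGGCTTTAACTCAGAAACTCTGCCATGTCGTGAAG
exon 25: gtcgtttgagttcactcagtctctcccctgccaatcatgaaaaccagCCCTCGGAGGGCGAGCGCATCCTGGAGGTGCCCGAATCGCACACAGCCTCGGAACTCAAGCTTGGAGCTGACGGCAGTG
exon 26: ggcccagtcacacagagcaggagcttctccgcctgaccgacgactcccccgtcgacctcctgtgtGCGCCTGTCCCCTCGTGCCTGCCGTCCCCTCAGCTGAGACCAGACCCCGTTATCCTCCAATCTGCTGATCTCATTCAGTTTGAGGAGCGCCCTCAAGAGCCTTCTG

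Exon 20 had the highest replicate 2 fold enrichment in MARF1 and no replicate 1 peak, and exons 19 and 24 had none in either. They lie on the minus strand of hg19 at chr16:15703380-15703582, chr16:15704832-15704965 and chr16:15694498-15694558, and capitals mark the bases of exon 20 inside the replicate 2 peak, which also runs past the downstream exon end.
exon 20: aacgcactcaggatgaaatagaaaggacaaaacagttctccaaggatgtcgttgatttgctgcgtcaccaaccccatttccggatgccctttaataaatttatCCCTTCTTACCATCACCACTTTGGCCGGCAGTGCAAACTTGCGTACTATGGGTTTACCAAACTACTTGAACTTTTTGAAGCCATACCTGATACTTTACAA
exon 19: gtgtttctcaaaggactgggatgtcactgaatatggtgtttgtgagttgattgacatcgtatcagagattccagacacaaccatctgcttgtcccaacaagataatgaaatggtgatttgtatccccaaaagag
exon 24: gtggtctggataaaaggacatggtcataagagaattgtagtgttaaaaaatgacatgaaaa

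Outside the coding sequence, a single interval was shared, in the 3′UTR. The 30 bases around its replicate 1 summit, at chr16:15689375-15689404 on the minus strand of hg19, have the summit base in capitals.
3'UTR summit: gccttcctctctagGtgcctgaggtgtccg

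The gene (ENSG00000166783) has 15 annotated transcripts, of which 7 are coding, and exons were numbered from the 5′ end of the main one, ENST00000396368. That transcript has 27 exons, a coding sequence of 5226 nt without the stop codon in exons 2 to 27, and a 3′UTR of 2306 nt. Of the 18 shared intervals, 17 lay in coding sequence and 1 in the 3′UTR. The list itself gives 12 of them to KIAA0430 and 6 to C16orf45, now named BMERB1, a gene on the opposite strand. Those 6 lay in MARF1 exons 9, 10, 17, 18, 21 and 23, and of them only the one in exon 9 overlapped an annotated exon of BMERB1. The deposited peaks carry no strand, so in exon 9 reads of the genes cannot be told apart.

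Of the MARF1 peaks, 18 of 21 in replicate 1 lay behind a shared interval, against 35.9% of all peaks of that replicate. In replicate 2 the count was 17 of 20, against 46.8% of all its peaks. Overlap between replicates is what defines a shared interval, so nothing is read from these shares. A single replicate 2 peak of 567 bp spanned both intervals of exon 3, which is why 17 peaks stand behind 18 intervals there.

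Fold enrichment is the ratio of reads at a peak's summit, its highest point, to the local background, as the peak caller gave it. In the form solved here, 1 is added to both reads and background. Where the background is far under 1, the value therefore follows the number of reads and is no plain ratio to control. The upstream interval of exon 3 reached 6.10 in replicate 1 and the downstream one 15.5, and the replicate 2 peak across both reached 12.9. The value of 15.5 was the 6th highest of all 719 peaks in replicate 1. Exon 3 has the most coding sequence of the MARF1 exons, at 687 nt, and the stretch with the higher value lies toward its downstream end.

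Exons 8 to 11 followed as a run with a shared interval in each. Exon 8, which holds RRM1, had a fold enrichment of 6.65 (replicate 1) and 10.4 (replicate 2). Its summits, at nt 1813 and 1834 of the coding sequence, lay downstream of RRM1, which ends at nt 1746. In exon 9 the fold enrichment was 8.50 and 7.29, and in exon 10 it was 5.95 and 8.10. Exon 11 was the lowest of the coding exons with a shared interval in both replicates, at 4.22 and 6.68. Its peaks also had the highest q-values in MARF1, 0.0153 in replicate 1 and 4.45e-06 in replicate 2, while the highest among all called peaks were 0.0489 and 0.0433. MARF1 peaks of replicate 2 were thus all far inside the calling threshold, and that of exon 11 in replicate 1 was the one nearest to it.

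Exons 14 to 18, which encode LOTUS2, LOTUS3 and parts of LOTUS1 and LOTUS4, made the longest run. The LOTUS array goes on past it, with LOTUS7 in exons 22 and 23. Exon 14 reached 7.21 in replicate 1 and 12.0 in replicate 2, and exon 15 reached 10.6 and 11.2. In exon 16 the values were 7.75 and 8.04, close to each other. Exon 17 went the other way from exon 14, with 11.7 in replicate 1 and 8.08 in replicate 2, and exon 18 had 9.26 and 8.76. No exon of this run stood high or low in both replicates against all the others.

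Toward the 3′ end, exons 21 to 23 and 25 to 27 formed the remaining runs. Exon 21 reached 11.9 in replicate 1 and 14.7 in replicate 2. Exons 22 and 23 had the same values, 5.55 and 8.58, and the same reads, 9 and 17. Exon 25 reached 12.1 and 13.4, and exon 26 reached 13.2 and 13.9, so that these neighbours were high in fold enrichment in both replicates. In exon 27 the coding peak had 9.98 and 11.0 and ran 58 bases past the stop codon in replicate 1 and 25 in replicate 2. Its reads, 17 and 22, exceeded those of exon 25 (13 and 15) and of exon 26 (14 and 18). Its background allowed at most 1 control read in 100 bp in each replicate, against 0 for exons 25 and 26. The order of exons by fold enrichment thus differs from that by reads, and 1 control read can change it.

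**Figure D1:**
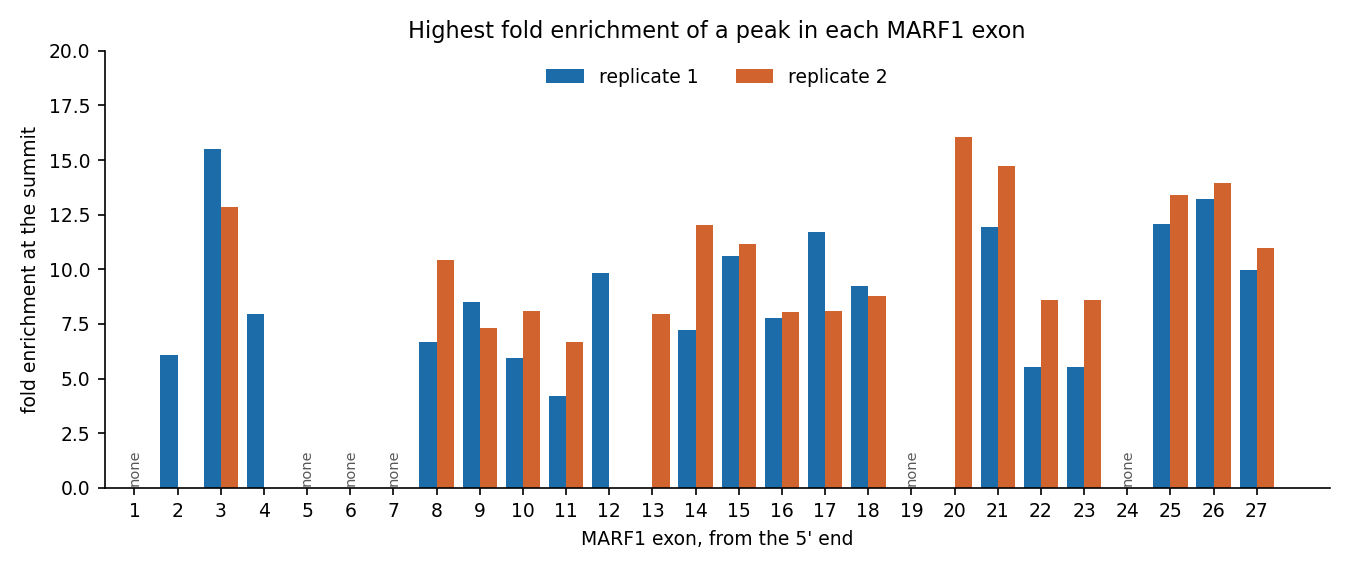
Highest fold enrichment of a peak at its summit (vertical axis, a ratio without unit) in each MARF1 exon (horizontal axis) for both F-MARF1ΔNYN replicates, with "none" where neither replicate had a peak and no bar where that replicate had none. Exons 5 to 7, 19 and 24 are empty among the coding exons, and exon 20 has a bar of 16.04 in replicate 2 alone.

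Ordered by the mean of the log2 fold enrichment of both replicates, the intervals of exons 3 (3.82), 26 (3.76), 21 (3.73) and 25 (3.67) came first. Exon 15 (3.44) was next, and the range between its replicates did not overlap that of exon 25. The other 16 of 17 neighbouring pairs in the order had overlapping ranges, down to exon 11 at 2.41. The order within each of those pairs thus does not exceed the spread between replicates. Intervals further apart in the order can still be separate, as exon 15 (10.6 to 11.2) is from exon 11 (4.22 to 6.68). With 2 replicates, that spread is the distance between a pair of values.

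Replicate 2 had the higher fold enrichment at 14 of the 18 MARF1 intervals, and at 174 of the 264 intervals outside MARF1 (65.9%). The median log2 ratio of replicate 2 over replicate 1 was 0.23 in MARF1 and 0.20 outside. In size, the log2 ratio had a median of 0.37 over the MARF1 intervals and was largest, at 1.08, in the upstream interval of exon 3. The median shift between replicates in MARF1 was thus close to that elsewhere, and the interval that moved most was the one that shares its replicate 2 peak with a stronger neighbour.

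**Figure D2:**
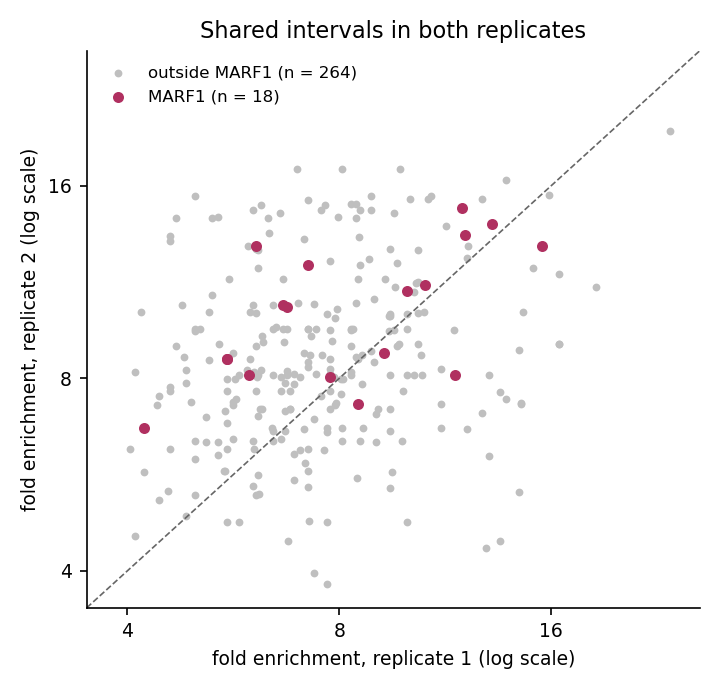
Fold enrichment at the summit in replicate 1 (horizontal axis) and replicate 2 (vertical axis), both ratios on log scales, of the peaks behind each shared interval, with 18 points in MARF1 and 264 outside; the dashed line marks equal values. The MARF1 points lie within the range of the others, and 14 of 18 lie above the line.

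Over peaks behind a shared interval, the median fold enrichment in MARF1 was 8.13 in replicate 1 (18 peaks, range 4.22 to 15.5) and 10.3 in replicate 2 (17 peaks, range 6.68 to 14.7). Outside MARF1 the medians were 7.21 over 240 peaks and 8.11 over 233 peaks. The difference between MARF1 and the rest was not tested, as calling chose both.

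Reads at each summit were solved from the fold enrichment and the p-value together, and a whole number of reads met both for all 719 and 534 peaks, to within 0.001 of the −log10 p. The median over MARF1 peaks behind a shared interval was 10.5 reads in replicate 1 and 13 in replicate 2, against 12 and 15 outside MARF1. Over all called peaks the order was the other way, with medians of 10 reads in MARF1 and 8 outside in replicate 1, and 12.5 and 11 in replicate 2. Whether MARF1 summits had more or fewer reads than others thus depended on the peaks compared. Exon 3 had the most reads, 22 in replicate 1 and 26 in replicate 2, and exon 10 had among the fewest, 6 and 9. The local background allowed at most 1 control read in 100 bp at 17 of 18 MARF1 summits in replicate 1 and at 17 of 17 in replicate 2. It allowed 0 control reads at 11 and 12 of them. Library totals are unknown from these files, and with so few reads per summit the values of single exons are coarse.

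**Figure D3:**
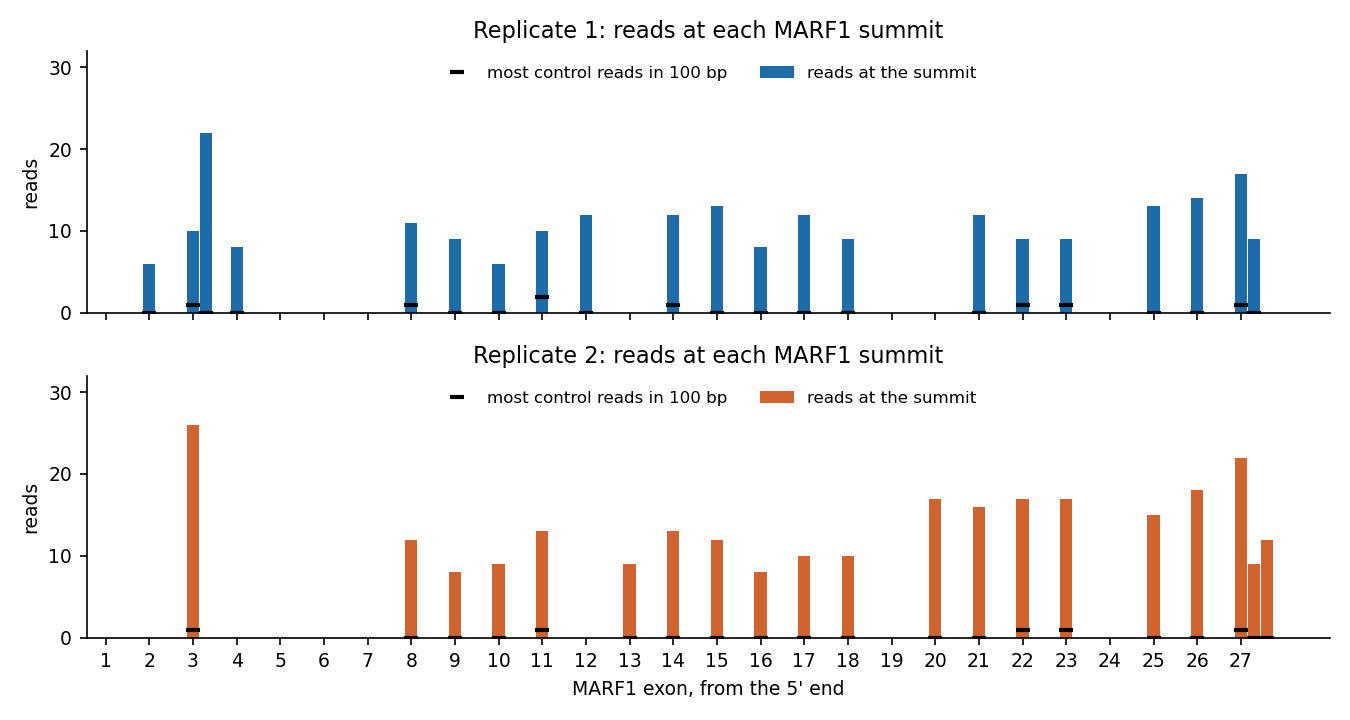
Reads at each MARF1 summit (bars) and the largest number of control reads in 100 bp that the background allows (black dashes), by exon, in replicate 1 (top) and replicate 2 (bottom); several peaks of an exon stand side by side. Summit reads run from 6 to 22 in replicate 1 and from 8 to 26 in replicate 2, over at most 2 and 1 control reads.

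Of the 26 coding exons, 16 had peaks of both replicates, 3 of replicate 1 alone, 2 of replicate 2 alone and 5 of neither. Exon 1, which is noncoding, also had none. Replicate 1 alone had a peak in exon 2 (6.07, 6 reads), in exon 4 (7.97, 8 reads) and in exon 12 (9.84, 12 reads). Replicate 2 alone had a peak in exon 13 (7.96, 9 reads) and in exon 20. The exon 20 peak reached 16.04 with 17 reads, the 4th highest fold enrichment of all 534 peaks in replicate 2, and its background allowed at most 7 control reads in 10 kb. Exon 20 thus had the highest fold enrichment of the MARF1 exons in replicate 2 and no called peak in replicate 1. By reads it was not the highest, as exons 3 (26), 27 (22) and 26 (18) had more in replicate 2. Exons 22 and 23 also had 17 reads there and reached 8.58. Their background allowed at most 1 control read in 100 bp, against 0 in exon 20. A missing peak says that calling found none there, not that no read fell there.

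The 5 coding exons without a peak were exons 5, 6, 7, 19 and 24. Their median length was 134 nt, against 201.5 nt for the 16 exons with peaks of both replicates, and their median GC content was 44.1% against 48.2%. Exon 24, at 61 nt and 32.8% GC, was the shortest coding exon and the lowest in GC. The part of length and base composition in the missing peaks was not tested.

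Exons 5 to 7 hold the part that the NYN deletion removes from the transgene, nt 1054 to 1482 of the coding sequence. It spans 429 nt, or 8.21% of the coding sequence, with 180 bases in exon 5, 118 in exon 6 and 131 in exon 7, as capitals show above. It held 0 peaks in replicate 1 and 0 in replicate 2. Around it, the stretch without a peak ran from nt 952 to 1596 (645 nt) in replicate 1 and from nt 777 to 1574 (798 nt) in replicate 2. These were the longest stretches without a peak in the coding sequence, and the next longest were 360 nt and 237 nt, both starting at nt 3618 with exon 19. Both stretches were longer than the deletion, so bases still present in the transgene on either side of it also lacked a peak. Whether the deletion gives the gap was not tested.

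Among the parts of the coding sequence placed from the cloning primers, 8 could be placed exactly and 2, LOTUS5 and LOTUS6, could not and are not described. Peaks covered 68.5% of RRM1 in replicate 1 and 78.5% in replicate 2, and shared intervals covered 68.5%. For RRM2 the values were 44.9% and 39.0%, but shared intervals covered only 56 of its 267 nt. The exon 12 peak was of replicate 1 alone. In exon 11, the peak started at nt 2405 in replicate 1 and at nt 2309 in replicate 2. The sequence of LOTUS7 was covered most, at 81.3% and 82.2%, with 81.3% in shared intervals. LOTUS1 was covered at 30.6% and 31.7%, but by peaks at different places, so that shared intervals covered 0% of it. Coverage of the other LOTUS parts lay between 42.6% (LOTUS4, both replicates) and 76.9% (LOTUS3, replicate 2). Shared intervals covered 51.6% of LOTUS2, 36.6% of LOTUS3 and 42.6% of LOTUS4. Over the whole coding sequence, peaks covered 48.3% in replicate 1 and 54.7% in replicate 2, shared intervals 37.5%, and peaks of either replicate 65.6%.

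**Figure D4:**
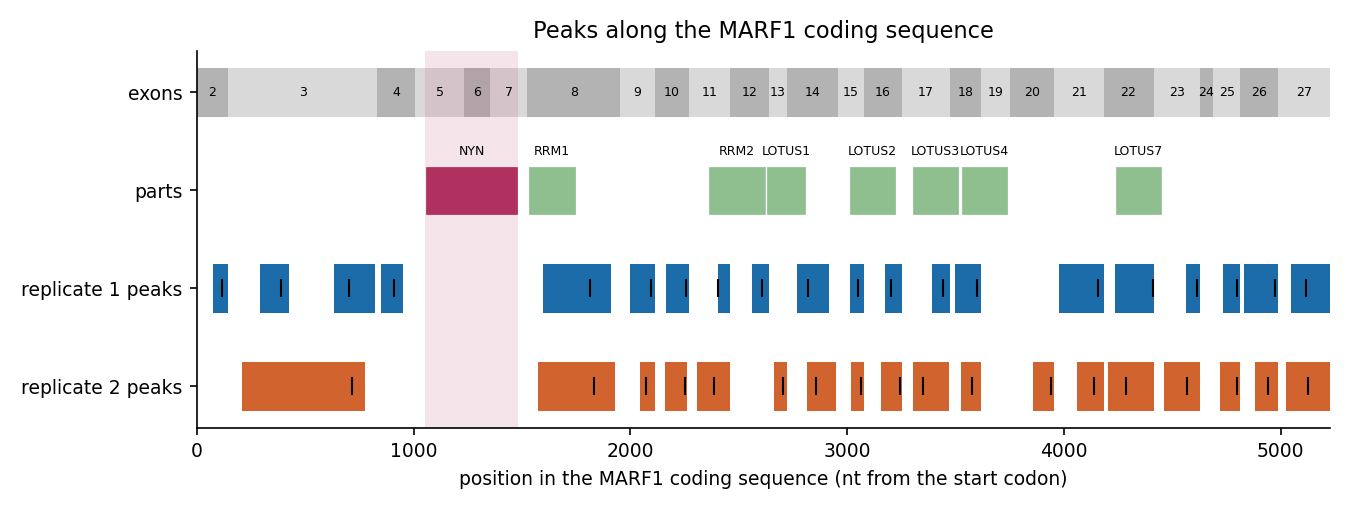
Map of the MARF1 coding sequence (horizontal axis, nt from the start codon) with its exons, the parts placed from primers, and the peaks of each replicate, whose summits are black ticks; the shaded band is the part removed by the NYN deletion. No peak falls in the band, nt 1054 to 1482, and peaks lie on both sides of it.

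In the 3′UTR, the shared interval had a fold enrichment of 6.75 with 9 reads in replicate 1 and 10.3 with 12 reads in replicate 2. Its peaks lay 1116 to 1215 nt and 1113 to 1249 nt after the stop codon, with summits at 1160 and 1165 nt. Replicate 2 alone had another peak there, 808 to 986 nt after the stop codon, with 8.53 and 9 reads. The primers for the full-length coding sequence end at nt 5229, the last base of the stop codon, so the 3′UTR of MARF1 lies outside the stretch between them. These primers were made for plasmids, and which UTRs the inducible copy carries is not given in the sources used here, so at the 3′UTR peaks RNA of the added copy and of the cells' own gene cannot be told apart. The 3′UTR interval ranked 11 of the 18 in the order of mean log2 fold enrichment, in the middle of the coding ones.

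The summits behind a shared interval lay a median of 21 bases apart between replicates in MARF1 (range 1 to 330) and 55.5 bases outside. Overlap and peak length bound this distance, and the peaks outside were longer, with medians of 193.5 and 179 bp in replicates 1 and 2 against 151 and 157 bp in MARF1, so nothing is read from the difference. Both summits fell inside the shared interval at 15 of 18. Leaving out exon 27, whose downstream end is the end of the transcript, 16 of 19 summits in replicate 1 and 15 of 17 in replicate 2 lay closer to the downstream exon end than to the upstream one. The median distance to the downstream end was 28 nt in replicate 1 and 41 nt in replicate 2, and to the upstream end 146 nt and 129 nt. Most MARF1 summits thus lay closer to the 3′ ends of its exons in both replicates. The same distances are not given for other genes, so they are not called particular to MARF1. The part of the caller's lengthening of reads in summit position was not tested.

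**Figure D5:**
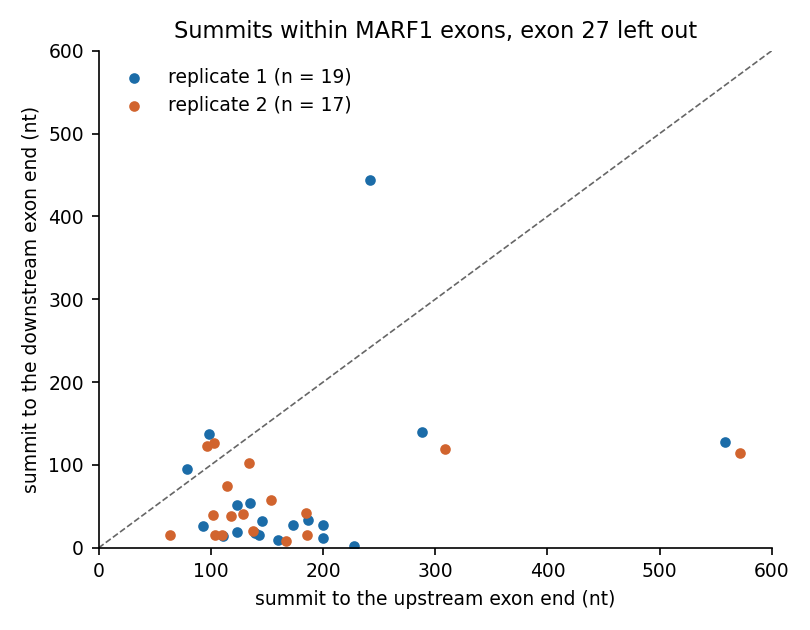
Distance of each MARF1 summit to the upstream (horizontal axis) and downstream (vertical axis) end of its exon, in nt, with exon 27 left out; points under the dashed line are closer to the downstream end. There are 16 of 19 such points in replicate 1 and 15 of 17 in replicate 2.

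Peaks also ran past exon ends on that side only. In replicate 1, 14 of 21 peaks went past the downstream end of their exon, by 23 to 73 bases (median 49), and in replicate 2, 12 of 20 did, by 10 to 67 bases (median 33.5). Past the upstream end went 0 peaks in either replicate. The peak caller lengthened reads along the genome and not along spliced RNA, and its part in this overhang was not tested.

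The MARF1 intervals had a median GC content of 51.7% (lowest 34.4%, in exon 21), against 43.0% for the 264 intervals outside. Of the 21 intervals with their middle base in a coding exon, 17 were in MARF1. The comparison thus sets mostly coding sequence against mostly other sequence. Their median length was 109.5 bp (range 68 to 315), against 121 bp. No coding exon of MARF1 (0 of 26) and none of its 3′UTR peaks (0 of 3) had another stretch in the genome that matched over at least 30 bases at 90% identity or more in the search that was run. The search could miss matches near those limits, so the counts speak only to longer or closer copies.

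Counted by position, MARF1 had 18 shared intervals, or 6.38% of the 282, and ranked 1 of 116 genes, while the other genes were counted by the symbol in the list. Under its own symbol in the list, KIAA0430, it had 12, fewer than LNPEP and as many as CBX6. The genes that followed were LNPEP, an aminopeptidase gene, with 13, CBX6, a Polycomb gene, with 12, and IGF2BP1, which encodes an RNA-binding protein, and the noncoding RNA LINC00657 with 9 each. Median fold enrichments in replicates 1 and 2 were 9.40 and 9.29 for LNPEP, 6.14 and 8.62 for CBX6, 7.26 and 10.6 for IGF2BP1, and 7.85 and 8.54 for LINC00657. Those of MARF1, 8.13 and 10.3, lay within the range of these genes. By position, 17 of the 21 intervals with their middle base in a coding exon were in MARF1 and the other 4 in the transcription factor gene MYC (4.19 to 9.43 in replicate 1 and 5.39 to 10.2 in replicate 2), while the protein-coding LNPEP, CBX6 and IGF2BP1 had 0. NOTCH2, a receptor gene, had the highest fold enrichment of all in a single interval, 23.6 and 19.4, above every MARF1 peak.

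Of 18 genes related to MARF1 by domain or pathway, 7 encode NYN or PIN domain relatives, 2 other LOTUS proteins and 9 decapping or P-body factors. Only DCP2, the decapping enzyme, had a peak, in replicate 1 alone (5.12, 7 reads), and 0 had a shared interval. Only 116 genes of the whole list had one, so nothing is read from the 0. EDC4, the partner of MARF1, had none in either replicate. On chromosome 16, replicate 1 had 42 peaks and replicate 2 had 36, and the nearest to the MARF1 gene body lay 1.33 Mb and 3.39 Mb away, so MARF1 peaks formed a group on their own.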

How the data were processed

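Peak lists of 2 F-MARF1ΔNYN libraries were analysed, each called by the authors against the control library of its number. Per the submitters' processing notes and the methods, the authors used Trimmomatic 0.32, STAR 2.3.0e on hg19 (GRCh37), samtools 1.9, Picard 2.10.7, macs2 2.1.1 and Homer 4.10. The deposited lists give each peak a fold enrichment, which is a linear ratio over local background. They also give its p-value and q-value as −log10, and a score, which the authors' caller made by cutting 10-fold −log10 q to a whole number. All 1253 deposited peaks had a q-value under the authors' FDR of 0.05. The files hold no counts per library, so no test was made.

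Peaks that overlapped by at least 1 bp gave the shared intervals, and the result matched the deposited list. Exons came from GENCODE release 44 on the same build. Summit reads n and background b were solved from the fold enrichment, (n × weight + 1) / (b + 1), and the Poisson p-value, with weights of 1 and 0.95065 for replicates 1 and 2. The solution was tested on data simulated with the same formula. That tests the solving step, not whether the formula holds for the deposited peaks. Control reads are upper bounds from b. Parts of the coding sequence were placed from the deletion primers listed in the study's methods, taken to apply also to the inducible line. Copies were sought with blastn 2.17.0 at 90% identity over at least 30 bases, and a minimum of 50 bases, added after the search was seen, gave the same counts. The search also had a limit on matches expected by chance (E-value), which can drop matches near 30 bases at 90% identity. It can therefore miss short, diverged copies.

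The genes named are MARF1 and C16orf45, the other genes with the most shared intervals (4, as the third place was tied), every gene with an interval centred in a coding exon, NOTCH2, and a fixed list of MARF1 relatives and partners. For MYC, the 4 intervals centred in its coding exon were used. Members and lists were chosen with earlier results of these data known. Alternatives covered stricter q-values, a minimum fold enrichment of 4, stricter overlap, other exon and coverage rules, a read weight of 1 and each replicate alone. Scripts ran in Python 3.11.15 with pysam 0.24.0, pandas 2.3.3, scipy 1.17.1, numpy 2.4.6 and matplotlib 3.10.9.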

Additional observations from a re-analysis of the deposited data

How the results depend on the processing

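Counts were taken as kept within 1.5 times the reported value, and other values when they moved by less than the SD between the replicates' own values. Of 52 alternatives over all results, 8 moved the reported value and 44 did not, but 18 of the 44 left it as it was, several of them by construction. The minimum fold enrichment of 4 removes no MARF1 peak, a read weight of 1 is already that of replicate 1, and no replicate 1 peak holds several intervals. The number of shared intervals ranged from 13 to 21 and the number of coding exons with one from 12 to 19, within that factor, and the median fold enrichment in each replicate moved by less than the SD under the alternatives run for it. For peaks in the deleted part, the 3 alternatives only remove peaks from a count of 0, so their outcome was fixed and says nothing of stability. With a reciprocal overlap of 50%, which gave the lowest counts, 13 intervals and 12 exons, shared intervals covered 28.4% of the MARF1 coding sequence in place of 37.5%, and MARF1 held 9.29% of all shared intervals in place of 6.38%, as its own intervals fell from 18 to 13 and the total from 282 to 140. With the summit of one replicate inside the peak of the other, the share was 7.11%. Using a single replicate, which leaves all its peaks in place of shared intervals by construction, coverage was 48.3% to 54.7% and the share of all peaks 2.92% to 3.75%. A read weight of 1 gave a median of 16 reads at MARF1 summits in replicate 2 in place of 13, but at that weight a whole number of reads met both values at 0 of 17 of these summits, so the 16 is no solution. Each value rests on 2 replicates with few reads per summit, and exons without a peak may hold reads below the calling threshold. No paired analysis was possible because the deposited lists hold no values per library and no result comes from a test.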
